A study of Mus musculus with 6 samples.

Results

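The genes described here encode subunits of the GABA-A receptor, the chloride channel through which GABA inhibits most neurons of the brain. Members were 4 alpha subunit genes (Gabra2, Gabra3, Gabra4 and Gabra5), 2 beta subunit genes (Gabrb1 and Gabrb2) and the delta subunit gene Gabrd, which makes 7 of the 20234 genes of the deposited count table, and they were chosen by name. The study asked how erythropoietin (EPO), a growth factor best known from red blood cell formation, acts on hippocampal neurons, and measured single cells of CA1 by Drop-seq, a droplet method that tags each captured polyA RNA with a unique molecular identifier (UMI). Male C57Bl6 mice at postnatal day 28 received 1 injection of placebo (mice 1, 3 and 5) or of 5000 IU/kg recombinant human EPO (mice 2, 4 and 6) and were sacrificed 6 h later, so that each group held 3 mice and the injected agent was the difference the labels name. A D number in the labels, whose meaning was not given, was 1 for mice 1, 2 and 3 and 2 for mice 4, 5 and 6.

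Cells were the barcodes with over 1000 and up to 8000 detected genes and at most 40% mitochondrial UMIs, which left 973 of 6000 barcodes (390 of placebo mice and 583 of EPO mice). Each mouse gave between 43 cells with 204479 UMIs (placebo mouse 3) and 271 cells with 1948490 UMIs (EPO mouse 4). The libraries of placebo mouse 1 and EPO mouse 4 were not fully separate: 53 barcode sequences occurred in these libraries and in no other, each had more UMIs in placebo mouse 1, and 28 of them were retained cells of EPO mouse 4. The fits and shares were therefore repeated without those 28 cells, which changed no call of a member, while levels per mouse and cluster are given with them. The 973 cells fell into 13 clusters, with GABA-A receptor genes kept out of the clustering, and were named from standard markers, with 619 glutamatergic-like, 129 oligodendrocyte-like, 77 astrocyte-like, 54 GABAergic-like, 39 endothelial-like, 37 oligodendrocyte precursor (OPC)-like and 18 microglia-like cells. Clusters 0, 1 and 11 (140, 132 and 22 cells) were named glutamatergic-like by default, since no class list with at least 3 markers detected stood above the other cells. In them 6, 5 and 6 of the 7 glutamatergic markers were detected, at a mean log2 level of -0.43, -0.32 and -0.23 against the other cells. As a check of the dissected tissue, 264 of the 619 glutamatergic-like cells lay in clusters 3, 4 and 9, in which 5 or 6 of the 6 CA1 markers were detected at a mean level above the other cells, and which are called CA1-like. That mean log2 difference was 1.06, 0.43 and 0.67. Clusters 6 and 11 also had 5 of the 6 markers detected, at -0.28 and -0.83, so that level and not detection set the name. Of the other clusters, 11 (22 cells, led by Nts), 0 and 6 were subiculum-like, with 5, 4 and 3 of 5 markers at a mean log2 level of 2.88, 0.32 and 0.29 above the other cells, so that this name is firm for cluster 11 alone, and cluster 1 had no region. Clusters 0 and 1 also stood apart by a median mitochondrial share of 20.8% and 17.7% and by the lowest glutamatergic markers of the glutamatergic-like clusters. Cluster 9 held cells of placebo mouse 1 and EPO mouse 4 alone. The classes were drawn from other genes of the same cells, so the tests between classes below compare groups that these data defined.

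GABA-A receptors are pentamers of alpha, beta and gamma or delta subunits around a chloride pore, with GABA bound between alpha and beta subunits. The alpha subunit sets much of the affinity for GABA, the response to benzodiazepines and the place of the receptor in the membrane. In hippocampal pyramidal neurons, receptors with the Gabra2 product are known from synapses and the axon initial segment. Receptors with the Gabra5 product are mostly extrasynaptic there and carry tonic inhibition. The delta subunit joins extrasynaptic receptors in some interneurons and, with the Gabra4 product, in dentate granule cells. Whether the opened channel inhibits depends on the chloride gradient, which the transporters Slc12a5 (KCC2, extruding chloride) and Slc12a2 (NKCC1, importing it) set.

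By the GENCODE vM21 annotation of GRCm38, the same assembly as the mm10 build named in the labels, 3 of the 7 genes share a stretch of chromosome 5: Gabra2 (chr5:70957597-71095849, minus strand), Gabra4 (chr5:71569749-71658308, minus strand) and Gabrb1 (chr5:71658113-72149037, plus strand). The first exons of Gabra4 and Gabrb1 overlap head to head, since Gabrb1 starts 195 bases before the position at which Gabra4 starts on the opposite strand. Drop-seq reads the 3′ end of a transcript, which lies far from this overlap in both genes. Gabra5 lies on chromosome 7 (chr7:57407672-57510059, minus strand), Gabrb2 on chromosome 11 (chr11:42419757-42629028, plus strand), Gabrd on chromosome 4 (chr4:155384980-155398112, minus strand) and Gabra3 on the X chromosome (chrX:72432681-72656848, minus strand).

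Promoter windows of 300 bases, from 250 bases before to 50 bases after a RefSeq start in GRCm38.p6, were found for 6 of the 7 genes (10 windows in all). They are shown here for the subunits that led in CA1-like cells, Gabra2 and Gabra5, and for the head-to-head pair Gabra4 and Gabrb1, of which Gabrb1 differed between glutamatergic-like and astrocyte-like cells. Each is written 5′ to 3′ on the strand of its gene, and capitals mark CpG dinucleotides.
Gabra2 (chr5:71095800-71096099, minus strand): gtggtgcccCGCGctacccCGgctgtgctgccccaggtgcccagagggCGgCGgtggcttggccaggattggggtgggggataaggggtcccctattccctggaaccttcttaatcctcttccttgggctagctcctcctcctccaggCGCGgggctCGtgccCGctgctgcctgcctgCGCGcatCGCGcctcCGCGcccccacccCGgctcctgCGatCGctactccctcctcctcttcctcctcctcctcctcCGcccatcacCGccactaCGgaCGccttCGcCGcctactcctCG
Gabra5 (chr7:57510010-57510309, minus strand): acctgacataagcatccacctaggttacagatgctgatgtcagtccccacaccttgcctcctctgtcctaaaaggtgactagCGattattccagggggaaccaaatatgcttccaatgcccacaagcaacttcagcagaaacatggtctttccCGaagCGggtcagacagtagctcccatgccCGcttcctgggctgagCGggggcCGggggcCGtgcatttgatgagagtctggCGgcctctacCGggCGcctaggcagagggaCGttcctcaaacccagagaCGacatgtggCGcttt
Gabra4 (chr5:71658259-71658558, minus strand): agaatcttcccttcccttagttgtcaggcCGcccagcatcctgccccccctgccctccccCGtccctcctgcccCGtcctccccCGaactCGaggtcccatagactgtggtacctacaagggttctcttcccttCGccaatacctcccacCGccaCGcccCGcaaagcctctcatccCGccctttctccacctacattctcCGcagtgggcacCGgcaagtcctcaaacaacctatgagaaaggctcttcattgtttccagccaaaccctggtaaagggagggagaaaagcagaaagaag
Gabrb1 (chr5:71657671-71657970, plus strand): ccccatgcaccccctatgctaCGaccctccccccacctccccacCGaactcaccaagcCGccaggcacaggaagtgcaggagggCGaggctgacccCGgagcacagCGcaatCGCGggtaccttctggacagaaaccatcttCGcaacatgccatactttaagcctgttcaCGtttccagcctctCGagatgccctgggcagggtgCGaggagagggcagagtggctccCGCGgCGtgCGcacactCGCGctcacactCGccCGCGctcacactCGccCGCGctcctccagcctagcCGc
The Gabra2 window and the Gabrb1 window shown held 25 CpG each, more than 81.6% of the 32851 promoter windows of the same length, while the Gabra5 window held 13 and the Gabra4 window 12, against a median of 7 over all windows. A second Gabrb1 window (chr5:71699682-71699981) held 9. Both Gabra3 windows held no CpG. They and 1 of the 3 Gabrb2 windows held TATAAA (searched on both strands), which 13.6% of all windows hold. CAGATG, searched in the same way, occurred in the Gabra5 window and in 17.2% of all windows, and TGACGTCA occurred in none of the 10 windows and in 1.79% of all. These are matches of letters, from which nothing was drawn about any factor.

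Levels are given as counts per 1000000 (CPM), the UMIs of a gene scaled to all UMIs of the same cells, summed over the cells of a class in a mouse. A UMI counts 1 captured 3′ end, so values were not divided by transcript length, and comparisons between genes take equal capture of their 3′ ends for granted. Together the 7 genes gave 1178 ± 198 CPM in glutamatergic-like cells (SD, n = 6 mice), 460 ± 172 in GABAergic-like, 423 ± 100 in astrocyte-like and 44.2 ± 32.0 in oligodendrocyte-like cells. At least 1 of them was seen in 580 of 619 glutamatergic-like cells (93.7%), 36 of 54 GABAergic-like cells (66.7%), 52 of 77 astrocyte-like cells (67.5%) and 29 of 129 oligodendrocyte-like cells (22.5%), although glutamatergic-like and oligodendrocyte-like cells had a like median depth (5233 and 5194 UMIs). Oligodendrocyte-like cells, in which free RNA of other cells can give single UMIs, serve below as the level to read others against. Endothelial-like and OPC-like cells held 5 and 14 UMIs of the 7 genes in all, and microglia-like cells 7.

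**Figure D1:**
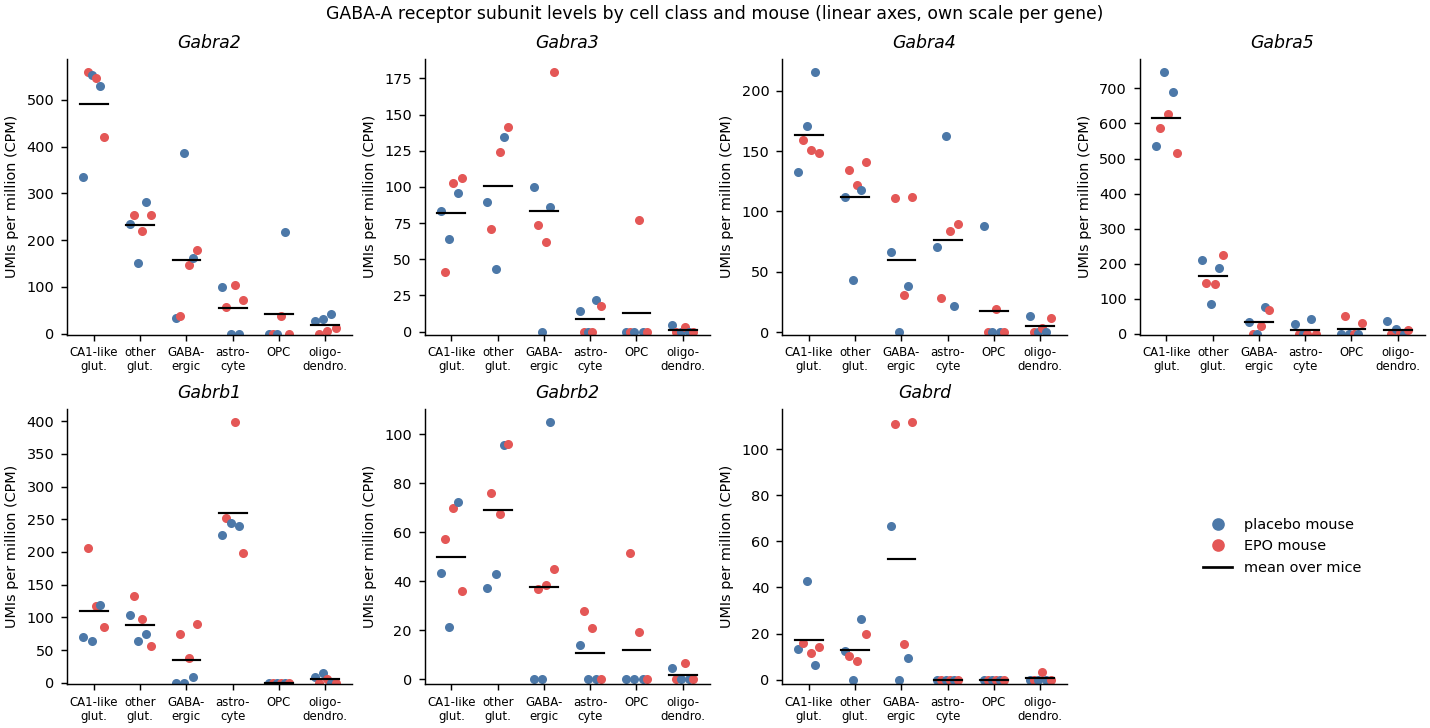
Levels of the 7 subunit genes (CPM, linear axes with a scale of their own per gene) in 6 cell groups, with 1 point per mouse and the mean over mice as a bar. Gabra5 and Gabra2 were highest in CA1-like cells, Gabrb1 in astrocyte-like cells, and Gabrd was at 0 in all 6 astrocyte-like sums.

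Of the 4 alpha genes described here, Gabra5 and Gabra2 made up most of the UMIs in glutamatergic-like cells. Gabra5 stood at 349, 417 and 578 CPM in placebo mice 1, 3 and 5 and at 342, 359 and 386 CPM in EPO mice 2, 4 and 6. Gabra2 stood at 278, 353 and 475 CPM in the placebo mice and at 390, 366 and 346 CPM in the EPO mice. The ranges of both genes and of both treatments overlapped, so that Gabra5 and Gabra2 cannot be ranked against each other from these cells.

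Gabra4 and Gabra3 were lower. Gabra4 ranged from 107 to 194 CPM over the 6 mice (148 CPM over all cells pooled, with an exact Poisson interval of 138 to 160, which covers counting error only) and Gabra3 from 53.5 to 122 CPM (pooled 101, interval 92.6 to 110). In each of the 6 mice the order was Gabra2 or Gabra5 first, then Gabra4, then Gabra3. The share of cells with a UMI, with every cell thinned to 1500 UMIs, was 37.8% for Gabra5, 37.0% for Gabra2, 16.2% for Gabra4 and 10.3% for Gabra3 (64.5%, 71.2%, 47.5% and 34.2% before thinning), against 0.775% to 3.88% of oligodendrocyte-like cells.

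Among the beta subunits and delta, Gabrb1 ranged from 64.2 to 165 CPM over the mice (pooled 105, interval 95.8 to 114), and Gabrb2 from 32.1 to 77.4 CPM (pooled 64.3, interval 57.5 to 71.7). In every mouse Gabrb1 was above Gabrb2. Gabrd was rare, with 63 UMIs in the 619 cells and 9.5 to 21.4 CPM in the mice. After thinning, 13.4% of the cells had a UMI of Gabrb1, 7.11% of Gabrb2 and 0.808% of Gabrd, and 0.775% of oligodendrocyte-like cells had one of Gabrb1 and 0 of 129 one of Gabrb2 or Gabrd (exact interval up to 2.82%).

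The first comparison set glutamatergic-like against oligodendrocyte-like cells within the 6 mice. Of the members, 5 passed the filter on low counts, and they passed it through the glutamatergic-like cells, where they are high, so that their direction was largely set by the filter and their number is no result. Over all genes, 35.8% of the 4656 genes tested were called higher and 29.2% lower. Gabra5 differed by 4.59 ± 0.33 on the log2 scale (± SE, adjusted p = 7.7e-21, edgeR quasi-likelihood test with the mouse as a block and Benjamini-Hochberg adjustment) and Gabra2 by 4.09 ± 0.31 (adjusted p = 9.4e-20). These rest on 11 and 14 UMIs in the oligodendrocyte-like cells. Gabra3, Gabra4 and Gabrb1 had 2, 5 and 5 UMIs there, too few for a fold to be given, or 2.37 (exact Poisson interval 0.286 to 8.54), 5.91 and 5.91 CPM (both 1.92 to 13.8), against 101, 148 and 105 CPM in glutamatergic-like cells. Gabrb2 and Gabrd did not pass the filter, with 326 and 63 UMIs in the glutamatergic-like cells and 3 and 1 in the oligodendrocyte-like cells. With library totals in place of TMM scaling (trimmed mean of M values, edgeR's default), the median of all genes moved from 0.13 to 0.41 and the calls from 1665 higher and 1360 lower to 2071 and 1098. These differences set neurons against a background level and do not say that oligodendrocyte-like cells hold transcripts of these genes.

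In astrocyte-like cells Gabrb1 had the highest level of the 7 genes, of 14 GABA-A receptor genes in the table. Gabrb1 stood at 226, 244 and 240 CPM in the astrocyte-like cells of placebo mice 1, 3 and 5 and at 252, 399 and 198 CPM in those of EPO mice 2, 4 and 6 (72 UMIs in 77 cells). The lowest of these 6 values lay above the highest Gabrb1 value of glutamatergic-like cells, 165 CPM in EPO mouse 2. After thinning to 1500 UMIs, 24.7% of astrocyte-like cells had a Gabrb1 UMI (exact interval 15.6% to 35.8%), although their median depth of 3079 UMIs was the lower one before thinning.

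In the within-mouse comparison, Gabrb1 was lower in glutamatergic-like than in astrocyte-like cells by 1.88 on the log2 scale (SE 0.31, adjusted p = 1.3e-06 by edgeR, lower in 6 of 6 mice), where 23.7% of the 1559 genes tested were called lower and 33.8% higher. Gabra2, with 18 UMIs in astrocyte-like cells, was higher in glutamatergic-like cells by 1.996 ± 0.39 (adjusted p = 2.2e-05 by edgeR). Gabra5 was called higher too, but its 4 UMIs in astrocyte-like cells are too few for a fold to be given. It was at 14.3 CPM there (exact Poisson interval 3.89 to 36.6), against 408 CPM in glutamatergic-like cells. These genes and Gabrb1 passed the filter on low counts through the class in which each is high, so that their directions were largely set by the filter. The other 4 members had too few UMIs for this test. With library totals the median of all genes moved from 0.19 to 0.70 and the Gabrb1 difference became -1.36, still past the threshold, while the calls went from 527 higher and 369 lower to 761 and 235.

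Gabra4, which meets Gabrb1 head to head, had 20 UMIs in astrocyte-like cells (71.4 CPM, interval 43.6 to 110), Gabra2 had 18 (64.3 CPM), Gabra5 4, Gabra3 3 and Gabrb2 3. Gabrd had no UMI there, below the 10.7 CPM that 3 counts would give. Gabrb1 thus took 96% of the 75 UMIs of Gabrb1 and Gabrb2 in astrocyte-like cells (exact interval 88.8% to 99.2%; per mouse 90% to 100%), against 61.9% of 856 in glutamatergic-like cells (53.8% to 70.9% per mouse). The ranges of the mice did not overlap.

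GABAergic-like cells carried another make-up, measured in few cells. Gabra2 gave 47 UMIs (139 CPM, interval 102 to 185), Gabra3 30 (88.6 CPM, 59.8 to 127), Gabrb2 19 (56.1 CPM), Gabra4 18 (53.2 CPM), Gabra5 15 (44.3 CPM), Gabrd 13 (38.4 CPM) and Gabrb1 12 (35.5 CPM). Of the 110 UMIs of the 4 alpha genes, 27.3% were Gabra3 (exact interval 19.2% to 36.6%) and 13.6% Gabra5 (7.84% to 21.5%), against 9.80% and 39.5% of 5235 in glutamatergic-like cells. These intervals cover counting error only. Per mouse, Gabra3 took 23.5% to 42.9% and Gabra5 0% to 21.1%, leaving out placebo mouse 3, which gave 1 cell. In glutamatergic-like cells the mice ranged from 5.75% to 12.2% and from 36.6% to 44.8%. Of the 54 cells, 47 had a UMI of Gad1, Gad2 or Slc32a1, which make or load GABA, while 7 had at least 3 markers of mural cells of vessels, so that the group was not pure.

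Gabra5 was higher in glutamatergic-like than in GABAergic-like cells by 3.17 ± 0.43 (adjusted p = 1.8e-11 by edgeR, higher in 5 of 5 mice with at least 5 cells of both), and Gabra2 by 1.495 ± 0.35 (adjusted p = 0.00047, 5 of 5 mice), where 7.84% of 6276 genes were called higher and 4.88% lower. Gabra5, Gabrb1 and Gabrb2, with 15, 12 and 19 UMIs in GABAergic-like cells, passed the filter on low counts through the glutamatergic-like cells. The directions of Gabra5 and Gabrb1 were thus largely set by the filter. Gabra4 and Gabrb1 were higher by 1.26 ± 0.44 and 1.40 ± 0.50 with adjusted p = 0.034 and 0.043, and these calls were fragile: DESeq2 gave 0.084 and 0.12 and limma 0.17 for both, and without EPO mouse 4 or placebo mouse 5 the calls were lost (0.26 and 0.30 for Gabra4, 0.16 and 0.32 for Gabrb1), as was that of Gabrb1 without placebo mouse 1 (0.089) and at a limit of 20% mitochondrial UMIs (0.24). Gabra3 differed by 0.00 ± 0.40 and Gabrb2 by 0.23 ± 0.47 (adjusted p = 1.0 and 0.86), intervals too wide to say that the levels were alike. With the 47 GABAergic-like cells with a UMI of the GABA genes alone, the differences of Gabra5 and Gabra2 stayed past the threshold in 4 mice, and the call of Gabrb1 was lost (adjusted p = 0.077).

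Gabrd, the delta subunit, had its highest level of the 13 clusters in the GABAergic-like cluster. Its 13 UMIs lay in 7 cells (12.96% of 54, interval 5.37% to 24.9%), and came from mice 1, 2, 4, 5 and 6 with 2, 3, 2, 1 and 5 UMIs. The 5 UMIs of mouse 6 lay in 1 cell. In mice 1, 2, 4 and 5 the level was at or below that of 3 counts, so that this rank rests on few cells. In glutamatergic-like cells 52 of 619 (8.40%) had a UMI. The gene did not pass the filter for the test. With no filter it was lower in glutamatergic-like cells by 1.61 on the log2 scale (SE 0.59), with an adjusted p = 0.074 by edgeR, which missed the threshold.

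**Figure D2:**
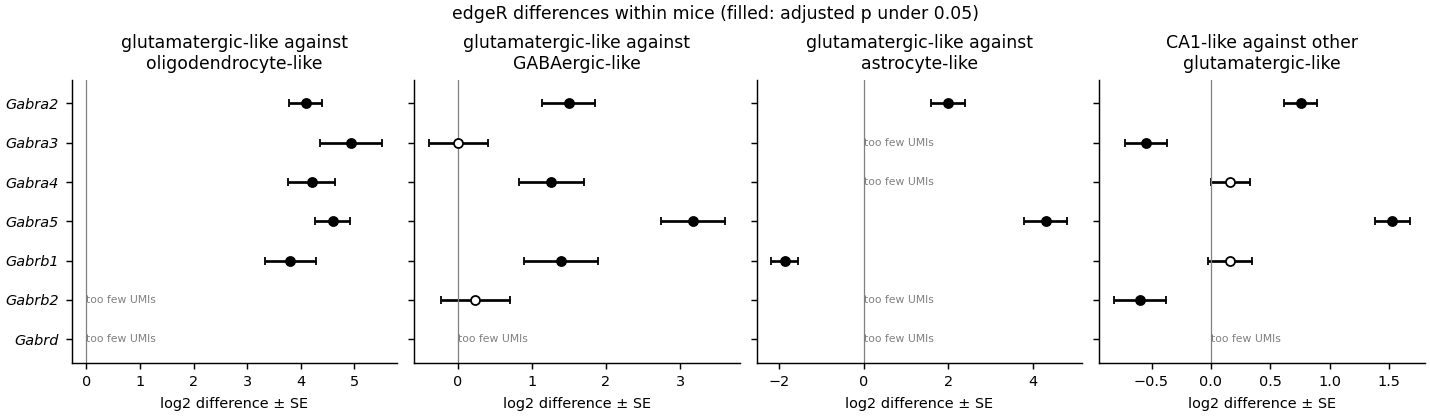
Differences on the log2 scale with their standard errors from the within-mouse edgeR tests, for glutamatergic-like against oligodendrocyte-like, GABAergic-like and astrocyte-like cells and for CA1-like against other glutamatergic-like cells. Filled points passed an adjusted p of 0.05, and Gabrb1 was the member that was lower in glutamatergic-like than in astrocyte-like cells. The points of Gabra3, Gabra4 and Gabrb1 against oligodendrocyte-like cells rest on 2, 5 and 5 UMIs there and are no measured folds. The same holds for Gabra5 against astrocyte-like cells, with 4 UMIs there.

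Within the glutamatergic-like cells, Gabra5 marked the CA1-like clusters. It stood at 535, 746 and 688 CPM in the CA1-like cells of placebo mice 1, 3 and 5 and at 588, 627 and 515 CPM in those of EPO mice 2, 4 and 6. In the other glutamatergic-like cells it stood at 211, 86.0 and 187 CPM in the placebo mice and at 145, 142 and 224 CPM in the EPO mice. No value of one set reached the other, though placebo mouse 3 gave only 4 CA1-like and 12 other glutamatergic-like cells. Its values, here and below for these clusters, are imprecise, and it did not enter the test. The difference was 1.53 ± 0.15 on the log2 scale (adjusted p = 4.5e-11, edgeR with the mouse as a block, higher in 5 of 5 mice with at least 5 cells of both), where 12.1% of 6639 genes were called higher and 14.2% lower.

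Gabra2 was higher in the CA1-like clusters too, by 0.76 ± 0.14 (adjusted p = 4.6e-05, 5 of 5 mice). Its values were 336, 554 and 529 CPM in the placebo mice and 560, 547 and 421 CPM in the EPO mice, against 236, 150 and 283 and 254, 220 and 253 CPM in the other glutamatergic-like cells. Again the sets did not overlap. Both calls held under each of the alternatives run, with differences of 1.38 to 1.71 for Gabra5 and 0.62 to 0.93 for Gabra2, among them the fit without the 28 cells with shared barcodes and the fit without clusters 0 and 1.

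Gabra3 and Gabrb2 went the other way, and less firmly. By CPM, Gabra3 was lower in CA1-like cells in 5 of 5 mice and Gabrb2 in 3 of 5. Gabra3 was lower in CA1-like cells by 0.55 on the log2 scale (SE 0.18, adjusted p = 0.020 by edgeR) and Gabrb2 by 0.60 (SE 0.22, adjusted p = 0.038). Their CPM were 83.1, 64.0 and 95.5 (Gabra3) and 43.2, 21.3 and 72.3 (Gabrb2) in the CA1-like cells of the placebo mice, and 41.3, 103 and 106 and 57.2, 70.0 and 36.01 in those of the EPO mice. In the other glutamatergic-like cells Gabra3 ranged from 43.0 to 141 CPM and Gabrb2 from 37.2 to 96.1 CPM, so that these sets overlapped. Both calls were lost by library totals in place of TMM scaling (adjusted p = 0.11 and 0.15), by DESeq2 (0.098 and 0.19), and without EPO mouse 2 (0.075 and 0.10) or placebo mouse 5 (0.072 and 0.083), as they were with no filter on low counts (0.12 and 0.13). The call of Gabrb2 was also lost without EPO mouse 6, with -0.35 and an adjusted p = 0.28, and with limma, without integration or at 20% mitochondrial UMIs (0.051 to 0.067).

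Gabra4 and Gabrb1 differed by 0.16 ± 0.16 and 0.16 ± 0.19 (adjusted p = 0.51 and 0.57). When clusters 0 and 1 were left out of the comparison, an alternative added after the clusters were seen, Gabrb1 was higher in CA1-like cells by 0.96 with an adjusted p = 0.0010, and Gabra4 was at -0.04. Library totals in place of TMM scaling moved the median of all genes from -0.0018 to 0.17 and the calls from 806 higher and 942 lower to 1363 and 599, with no change in the calls of Gabra5 and Gabra2.

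**Figure D3:**
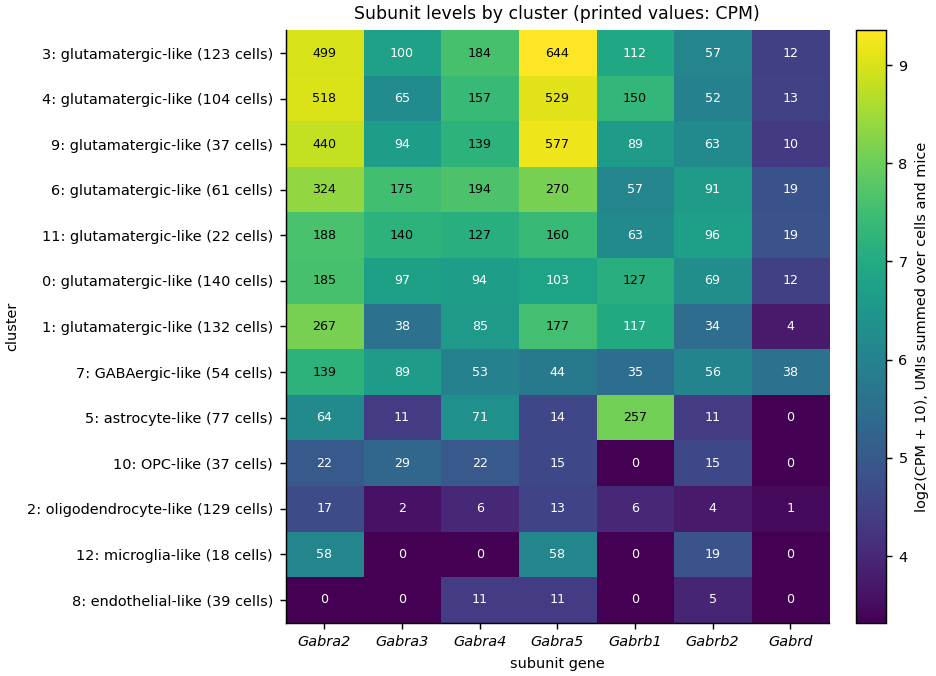
Levels of the 7 genes in the 13 clusters, coloured by log2(CPM + 10) with UMIs summed over cells and mice, and printed as CPM. Clusters 3, 4 and 9 (CA1-like) led in Gabra5 and Gabra2, cluster 6 in Gabra3 and Gabra4, cluster 11 (subiculum-like) in Gabrb2, cluster 7 in Gabrd and cluster 5 in Gabrb1.

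By cluster, Gabra5 was at 644, 529 and 577 CPM in the CA1-like clusters 3, 4 and 9, at 270 CPM in cluster 6, at 160 CPM in the subiculum-like cluster 11, and at 103 and 177 CPM in clusters 0 and 1. Gabra3 was highest in cluster 6 (175 CPM, 61 cells led by Ncald, Mef2c and Tshz2) and cluster 11 (140 CPM), and was at 64.9 to 99.8 CPM in the CA1-like clusters. Gabrb2 too was higher in these clusters, with 91.1 and 96.1 CPM in clusters 6 and 11 and 52.3 to 63.4 CPM in the CA1-like clusters. In clusters 6 and 11 the UMIs were thus spread more evenly over the 4 alpha genes than in the CA1-like clusters, with Gabra2 at 324 and 188 CPM and Gabra4 at 194 and 127 CPM. This was not particular to them. Cluster 0 held Gabra2, Gabra3, Gabra4 and Gabra5 at 185, 96.9, 93.9 and 103 CPM. Of the UMIs of the 4 alpha genes described here, 44.7% were Gabra5 and 6.74% Gabra3 in CA1-like cells, against 26.9% and 17.2% in the other glutamatergic-like cells. In single mice the Gabra5 share was 43.2% to 49.2% in the former and 23.3% to 32.6% in the latter, and that of Gabra3 3.07% to 8.94% and 11.8% to 20.5%, with no overlap in either. The shares of placebo mouse 3 among these rest on 4 and 12 cells.

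Across the 13 clusters, genes most like each member by the Pearson correlation of log2(CPM + 10), among 5883 genes with at least 200 UMIs, are given as a description, since clusters share libraries and differ in depth. For Gabra5 these were Ppp3ca (r = 0.988), a catalytic subunit of calcineurin, and Wipf3 (0.962). For Gabra2 they were Gramd1b, Syn1 and Dlg3 (0.969 to 0.972), of which Syn1 coats synaptic vesicles, and for Gabra3 Nap1l2, 2900011O08Rik and Gucy1b3 (0.965 to 0.978). Gabra4 was most like Jakmip1, Arf3 and Fbxl16 (0.947 to 0.965) and Gabrb2 was near Snap25 (0.980), which acts in vesicle fusion, and Atp6v0a1 (0.973). Gabrb1 was nearest to Ncan (0.939), a proteoglycan of the extracellular matrix, Srgap3 and Cry2 (0.905 and 0.904), and Gabrd to Tmem130, Serpini1 and Lamp5 (0.935 to 0.945). Among the members themselves, Gabra3 with Gabrb2 (r = 0.937) and Gabra2 with Gabra5 (0.924) were the nearest pairs, and Gabrb1 with Gabrd the farthest (0.426).

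Co-detection asked which subunits were seen in the same cell, in cells thinned to 1500 UMIs. CA1-like cells showed 1.55 ± 0.18 of the 7 genes per cell (SD over 6 mice), other glutamatergic-like cells 0.91 ± 0.24, GABAergic-like cells 0.74 ± 0.38 and oligodendrocyte-like cells 0.09 ± 0.06. At least 2 of the 4 alpha genes were seen in 115 of 264 CA1-like cells (43.6%), 57 of 355 other glutamatergic-like cells (16.1%), 2 of 54 GABAergic-like cells and 0 of 129 oligodendrocyte-like cells. At this depth a gene that is not seen may still be expressed.

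Gabra2 and Gabra5 were seen together in 108 of the 619 glutamatergic-like cells, against 89.4 that the single shares would give within each mouse, a ratio of 1.21 (1.01 to 1.53 in the 5 mice with at least 30 such cells). Within the CA1-like clusters the same ratio was 0.98. Of the 21 pairs, 7 had at least 20 cells by the single shares, with ratios from 0.73 (Gabra5 with Gabrb1, 22 cells against 30.3) to 1.21. Gabra5 with Gabrb1 reached 1.01 at 3000 UMIs and 1.17 without thinning, so that no pair is read as seen together more or less often than its single levels give.

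EPO was compared with placebo over mice, first on the UMIs summed over all cells of a mouse. None of the 7 genes passed the test, and neither did any other of 10043 genes (0%; 127 had an unadjusted p under 0.05 by edgeR, and DESeq2 called 1 gene). Differences of EPO from placebo ran from -0.18 ± 0.29 for Gabra5 to 0.33 ± 0.44 for Gabrd on the log2 scale, with adjusted p = 1 for each member. These sums mix cell types whose shares differed between mice, with glutamatergic-like cells at 37.2% to 74.5% of a mouse's cells.

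In glutamatergic-like cells none of the 8522 genes was called (0%; 158 at an unadjusted p under 0.05 by edgeR, 0 genes by DESeq2). Gabra5 had the lowest value of the members, at -0.36 ± 0.20 with an unadjusted p = 0.099 and an adjusted p = 1.0 by edgeR, and at -0.39 (unadjusted p = 0.075, adjusted p = 1.0) without the 28 cells with shared barcodes. Its CPM were 448 ± 118 in placebo and 362 ± 22.1 in EPO mice (SD, n = 3 each), and the ranges overlapped, as they did for all 7 members. Gabra2 was at 369 ± 99.2 and 368 ± 21.7 CPM, Gabra4 at 141 ± 46.8 and 142 ± 5.97 CPM, and Gabra3 at 81.4 ± 25.7 and 98.1 ± 35.0 CPM. The placebo mice spread more widely than the EPO mice for Gabra2, Gabra4, Gabra5, Gabrb2 and Gabrd. The beta and delta subunits were at 87.6 ± 22.4 and 115 ± 46.6 (Gabrb1), 49.8 ± 24.3 and 66.4 ± 3.22 (Gabrb2) and 14.9 ± 5.75 and 12.9 ± 3.53 CPM (Gabrd).

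Within the D numbers, the Gabra5 difference in glutamatergic-like cells was -41.7 CPM in D1 (mice 1, 3 and 2) and -206 CPM in D2 (mice 5, 4 and 6). Beside it, the share of glutamatergic-like cells that was CA1-like was 23.3%, 25% and 68.6% in placebo mice 1, 3 and 5 and 29.4%, 38.6% and 47.2% in EPO mice 2, 4 and 6, and their median mitochondrial share was 16.0%, 13.2% and 5.36% and at 20.8%, 10.8% and 3.23%. Placebo mouse 5, highest in Gabra5 and Gabra2 of all, had the largest CA1-like share. The part of these shares in the levels was not tested. Without that mouse the Gabra5 difference in glutamatergic-like cells was -0.14 on the log2 scale.

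**Figure D4:**
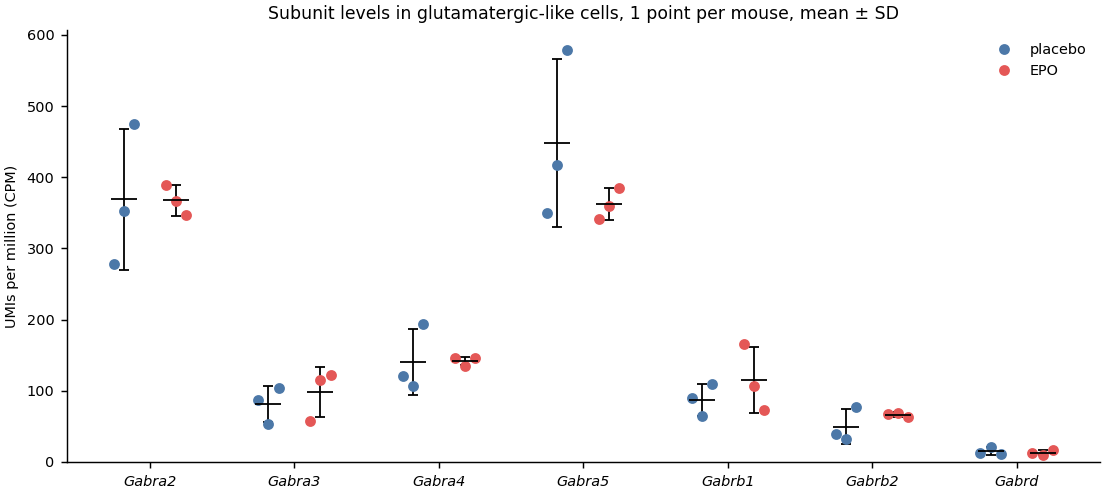
Levels of the 7 genes (CPM) in glutamatergic-like cells of 3 placebo and 3 EPO mice, with 1 point per mouse and the mean ± SD. The ranges of the groups overlap for each gene, and placebo mouse 5 is highest in Gabra2, Gabra4, Gabra5 and Gabrb2.

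The make-up of the subunit transcripts described here was compared as shares, which do not depend on the scaling of a library. They count RNA of the 4 alpha genes, and of Gabrb1 and Gabrb2, and not receptor protein. Gabra5 took 41.8%, 44.8% and 42.8% of the UMIs of the 4 alpha genes in the glutamatergic-like cells of placebo mice 1, 3 and 5, and 36.6%, 36.8% and 38.6% in those of EPO mice 2, 4 and 6. Every EPO mouse lay below every placebo mouse, with a difference of -5.83 percentage points. The two-sided exact permutation test gave p = 0.1, the smallest that 3 mice against 3 allow, and an adjusted p = 0.5 over the 5 shares tested, so the difference did not pass. The share of placebo mouse 3 rested on 39 Gabra5 UMIs.

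Since the shares of the groups were fully apart, the same order within each D number was fixed in advance and adds no support. The differences were -6.78 points in D1 and -5.08 in D2, and -6.16 points without the 28 cells with shared barcodes. In the CA1-like clusters alone the shares were 49.2%, 48.6% and 45.0% in placebo mice and 43.6%, 43.9% and 43.2% in EPO mice (-4.04 points, exact permutation p = 0.1, adjusted p = 0.5), and the D2 difference shrank to -1.47 points. The 48.6% of placebo mouse 3 rests on 4 cells. With each mouse left out in turn the difference in glutamatergic-like cells ran from -6.48 to -4.99 points, a sign that the full separation had fixed as well.

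The other shares overlapped between the groups. Gabra2 took 35.5% ± 2.32 of the UMIs of the 4 alpha genes in placebo and 38.0% ± 3.53 in EPO mice (SD, n = 3 each, exact permutation p = 0.5), Gabra3 7.94% ± 2.32 and 10.1% ± 3.34 (exact permutation p = 0.4), and Gabra4 13.4% ± 1.68 and 14.7% ± 0.86 (exact permutation p = 0.4). Gabrb1 took 64.8% ± 5.63 and 61.9% ± 8.58 of the UMIs of Gabrb1 and Gabrb2 (exact permutation p = 0.7). Adjusted over the 5 shares, these p-values were 0.63 to 0.7.

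**Figure D5:**
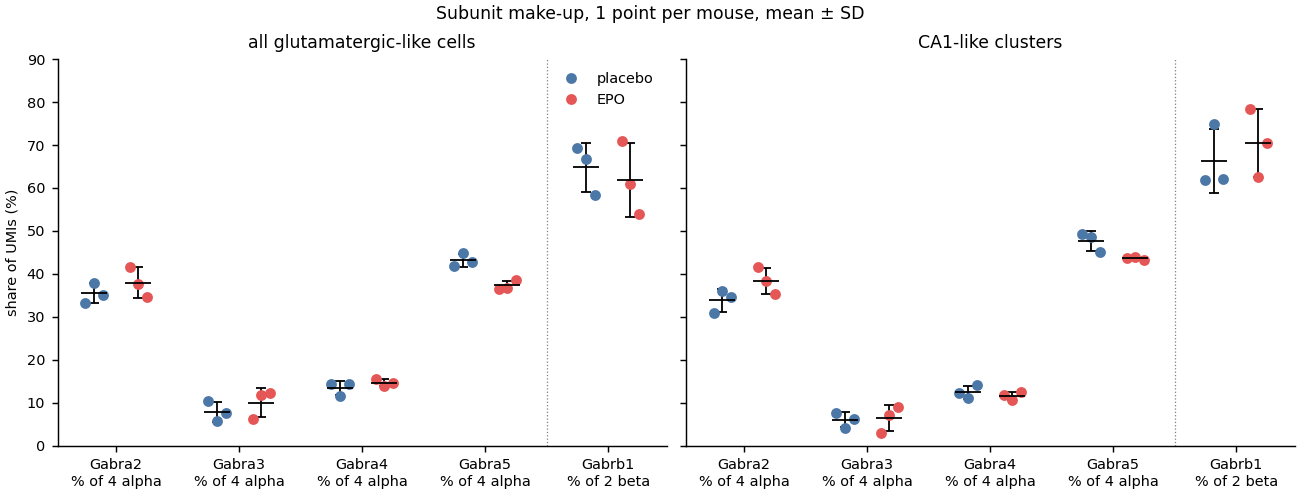
Share of each alpha gene in the UMIs of the 4 alpha genes, and of Gabrb1 in the UMIs of Gabrb1 and Gabrb2, in all glutamatergic-like cells and in the CA1-like clusters, with 1 point per mouse and the mean ± SD. The 3 EPO mice lie below the 3 placebo mice for Gabra5 in both panels, an order that did not pass the test.

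Around the receptor, 18 genes of its assembly, anchoring, trafficking and chloride gradient were examined. None passed the EPO test, in all cells (18 tested) or in glutamatergic-like cells (17 tested, from -0.37 for Shisa7, an auxiliary subunit, to 0.39 for Clptm1, which holds subunits in the endoplasmic reticulum). Against oligodendrocyte-like cells 9 of 17 tested were higher in glutamatergic-like cells and 5 lower (median 0.89, against 0.13 over all 4656 genes, of which 35.8% were higher and 29.2% lower). Slc12a5 was higher by 4.22 ± 0.38 and Slc12a2 lower by 5.90 on the log2 scale (SE 0.24), so that the chloride extruder stood at 210 CPM in glutamatergic-like and 9.46 CPM in oligodendrocyte-like cells and the importer at 37.1 and 1684 CPM. Slc12a5, Shisa7 and Plcl2, at 9.46, 4.73 and 11.8 CPM in oligodendrocyte-like cells, passed the filter on low counts through the glutamatergic-like cells. Plcl1, at 8.68 CPM in glutamatergic-like cells, passed it through the oligodendrocyte-like cells. Their directions were largely set by the filter, so that the numbers called are no result. Gphn, the scaffold gephyrin, did not differ past the threshold (-0.25 ± 0.21, adjusted p = 0.29 by edgeR; 146 and 137 CPM).

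Against astrocyte-like cells 5 of 8 tested were higher and 2 lower (median 1.17, against 0.19 over all 1559 genes, of which 33.8% were higher and 23.7% lower). Gabarap, which binds receptors in transit, was lower by 2.05 (SE 0.31). Slc12a5, among those higher, was at 210 CPM in glutamatergic-like and 10.7 CPM in astrocyte-like cells, the level of 3 counts there, too few for a fold. It passed the filter on low counts through the glutamatergic-like cells, so that its direction was largely set by the filter. Against GABAergic-like cells, where 7.84% of all genes were higher and 4.88% lower, 2 of 17 were higher, among them Nsf, which acts in membrane fusion (0.96 ± 0.30), and Slc12a2 was lower by 1.82 (SE 0.41). In CA1-like against other glutamatergic-like cells 2 of 17 were higher and 3 lower, shares near those of all genes (12.1% and 14.2%). Nsf was higher (0.57 ± 0.12), whereas Slc12a2, Rdx (radixin, an anchor of extrasynaptic receptors with the Gabra5 product, lower by 0.51, SE 0.18) and Slc12a5 (lower by 0.43, SE 0.15) were lower, and the other 12 of 17 did not pass (list median -0.0069, against -0.0018 over all 6639 genes). As pooled CPM, which carry no TMM scaling, Rdx was at 102 in CA1-like and 126 in other glutamatergic-like cells and Slc12a5 at 195 and 227, with SDs over mice of 21.0 and 53.4 for Rdx and 37.9 and 17.4 for Slc12a5. No alternative fit was made for these genes.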

How the data were processed

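Single cells of CA1 were measured by Drop-seq in 6 mice. The authors deposited raw UMI counts per gene and barcode, not normalized, with 1000 barcodes per mouse. Per the labels' processing notes, bcl2fastq 2.15, STAR 2.4.0 and mm10 were used; the annotation and the choice of barcodes are not given in the sources used here. Missing values, which stand for genes without a UMI in that mouse, were set to 0. The members and lists, with the markers of each class, were chosen with earlier results of these data known. Genes named were the members, 18 associated genes, the 3 genes most like each member, and markers; some of these are not reported here.

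Cells needed over 1000 and up to 8000 genes, and mitochondrial UMIs of 40% or less. Clusters came from Seurat 5.3.0 (R 4.3.3; canonical correlation integration of the treatments, 1000 variable genes each, 20 dimensions, resolution 1), with all 14 GABA-A receptor genes of the table left out of the variable genes. Doublets were not called and were kept. UMI counts summed per mouse and class were tested with edgeR 4.0.16 (quasi-likelihood, TMM, filterByExpr, Benjamini-Hochberg over all genes tested, threshold 0.05), between classes with the mouse as a block, in mice with at least 5 cells of both. DESeq2 1.42.0, limma 3.58.1, other filters and clusterings, and each mouse left out were alternatives. The fit was tested on simulated data. Shares were compared by two-sided exact permutation tests (scipy 1.17.1). Intervals are 95% exact Poisson or binomial. Retained UMIs per mouse ran from 204479 to 1948490, and placebo mouse 3, with 43 cells, is the least precise.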

Additional observations from a re-analysis of the deposited data

Results flagged for a closer look

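The difference of EPO from placebo had opposite directions in the D numbers for several members, with every EPO mouse on one side of every placebo mouse of its D number. In all cells, the difference was 110.7 CPM in D1 and -116.1 CPM in D2 for Gabra2, 35.8 and -46.52 CPM for Gabra4, 40.83 and -186.4 CPM for Gabra5, 66.83 and -17.54 CPM for Gabrb1, and 32.52 and -17.62 CPM for Gabrb2. In glutamatergic-like cells it was 73.93 and -118.5 CPM for Gabra2, 31.56 and -53.78 CPM for Gabra4, 88.36 and -19.09 CPM for Gabrb1, and 31.84 and -11.76 CPM for Gabrb2. D1 held 1 EPO mouse and D2 1 placebo mouse, so each difference rests on a single mouse in one arm. An interaction term between treatment and D number, added after these values were seen, gave adjusted p from 0.60 to 1.0 for the members by edgeR on 2 residual degrees of freedom, so the opposite directions did not pass a test.

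The 5027 barcodes that were not retained, with a median of 246 UMIs, held 1267 UMIs of the 7 genes, or 461 CPM against 940 CPM in retained cells, far above the 3 counts that a count of 0 allows. Gabrb1 was about as high there (94.2 CPM) as in retained cells (89.6 CPM), while Gabra5 was at 79.3 against 304 CPM and Gabra2 at 151 against 288 CPM. In 20 sets of within-mouse differences between cell classes, no mouse stood apart from the others by Dixon's test.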

How the results depend on the processing

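Counts of called genes moved with the filter and the tool. With no filter on low counts they became 5643 against oligodendrocyte-like, 1277 against GABAergic-like and 3568 against astrocyte-like cells, and 52 and 11 for EPO in all and in glutamatergic-like cells; more genes were then tested. DESeq2 called 995 genes between CA1-like and other glutamatergic-like cells and 1 for EPO in all cells, limma 379 against GABAergic-like cells, and a block for the D number 1 for EPO in all cells. With each mouse left out, the astrocyte-like comparison called 767 to 2247 genes (2247 without placebo mouse 3) and EPO in glutamatergic-like cells 0 to 7 (7 without placebo mouse 5). The cause of these changes was otherwise not tested.

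Differences near 0 changed sign. For EPO in all cells, leaving out 1 mouse gave log2 differences of -0.04584 to 0.5539 (Gabra2), -0.1419 to 0.4088 (Gabra4), -0.3622 to 0.2532 (Gabra5) and -0.05356 to 0.5187 (Gabrb1), and Gabra4 was -0.03679 with the D number as a block and -0.004002 without shared barcodes. In glutamatergic-like cells the ranges were -0.2099 to 0.1789 (Gabra2), -0.04215 to 0.3436 (Gabra3), -0.2282 to 0.1898 (Gabra4), -0.1123 to 0.5726 (Gabrb1) and -0.2554 to 0.1955 (Gabrd). There, Gabra2 was 0.01485 at 20% mitochondrial UMIs, Gabra3 -0.07178 with the D block, Gabra4 0.01005 by limma, and Gabrd -0.04425 by DESeq2, -0.2006 by limma and -0.0078 without shared barcodes. Against GABAergic-like cells Gabra3 was -0.0115 (DESeq2), -0.01654 (cells with a GABA gene), -0.07654 (limma) and -0.01806 (without shared barcodes), and -0.2113 to 0.2447 with each mouse left out. Gabra4 was -0.04105 between CA1-like and other cells without clusters 0 and 1. The EPO difference in share was -0.8552 points for Gabra4 and 4.164 for Gabrb1 in CA1-like clusters, and for Gabrb1 4.898 at 20% mitochondrial UMIs and -7.447 to 1.085 with each mouse left out. Co-detection of Gabra2 with Gabra5 was 0.9755 in CA1-like clusters (0.9837 at 3000 UMIs), and of Gabra5 with Gabrb1 1.173 without thinning.

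The calls of Gabra2 and Gabra5 in all 4 class comparisons, and of Gabrb1 against astrocyte-like cells, held under every alternative run. Against oligodendrocyte-like and astrocyte-like cells the filter on low counts largely set their direction, so that holding there is not read as support. So it did for Gabra5 against GABAergic-like cells, and holding there is not read as support either. The fits without TMM, without shared barcodes, without clusters 0 and 1, and with GABA gene cells were chosen after seeing the data. No paired analysis was possible because the groups share no replicate numbers. Depth limits Gabrd, with 77 UMIs in all retained cells, and every value of GABAergic-like cells.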
